A study of Mus musculus with 12 samples.

Results

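The SLC38 family carries glutamine, alanine and other small neutral amino acids across cell membranes together with sodium. The 9 members described here, Slc38a1, Slc38a2, Slc38a3, Slc38a4, Slc38a5, Slc38a6, Slc38a7, Slc38a9 and Slc38a10, were chosen by name, and all 9 were found among the 24062 gene symbols of the read count tables. Of the other family members in the tables, Slc38a8 had at most 1 read in any library and Slc38a11 at most 7, and neither was tested. RNA-seq had been done on 12 mice, 1 library per mouse, to ask how a diet without Trp changes gene expression in a MYC-driven liver tumor model and in a xenograft of liver cancer cells.

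The livers came from male LAP-tTA/TRE-MYC mice of the FVB strain (MYC-ON livers). In these mice a liver promoter drives the tTA activator, which turns on a human MYC transgene once doxycycline water (1 mg/mL) is withdrawn, here at birth, so MYC was on in every liver of both diets. Mice 101, 102 and 103 were fed the control diet, which the labels call complete, and mice 105, 107 and 108 the No-Trp diet. The HCC53N xenografts grew from 1 line of mouse liver tumor cells without p53 and with mutant NRAS, injected subcutaneously into the flanks of female NOD SCID hosts (NOD-SKID in the labels), with mice 40, 41 and 43 on the control diet and mice 35, 36 and 37 on the No-Trp diet. The labels also describe these tumor cells as FVB MYC ON, and whether they carry the MYC transgene was not settled here. Each diet was fed for 21 days, and the labels give an age of 45 days for MYC-ON males where they describe a comparison with wild-type mice, without saying whether it also holds for the mice on the diets. The models differ in strain, site and cell make-up as well as in the tumor, and in sex where the hosts were female. A difference between the models cannot be told apart from any of these. The tumor cells and their host are both mouse, so the xenograft counts hold reads from both.

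Each library had 14660963 to 26085349 reads counted on genes. Of the 12 libraries, 4 carry a resubmission mark in the deposit, which are livers 101 and 108 and control xenografts 41 and 43, and both marked xenografts were controls, so no diet comparison could be made within that mark for xenografts. Whether the mark is a sequencing batch is not stated in the sources used here. The diet of xenograft 40 rests on its labels alone, since its data are named in another pattern. Control liver 101 stood apart in its ribosomal precursor Rn45s, which took 12.1% of its gene counts against at most 2.22% in the other livers. Hepatocyte markers (9 found of 10 listed, none under 1 CPM in any library) summed to 12318 to 42362 CPM in the control livers and 51656 to 128790 in the No-Trp livers, but only to 789 to 2270 in the 6 xenografts. Summed cholangiocyte markers (6 of 6 found) ran the other way, with 87.1 to 167 CPM in the livers and 2973 to 10765 in the xenografts. Most of the xenograft sum was Spp1 (2332 to 9929 CPM). Krt19, Krt7 and Sox9 were also higher in every xenograft than in any liver, while Epcam and Cftr overlapped between the models. Levels are given as CPM, which are read counts relative to the size of the library, with sizes scaled by TMM factors to correct for differences in RNA composition.

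By transport activity the members fall into classes. Slc38a1, Slc38a2 and Slc38a4 encode system A carriers at the plasma membrane, of which Slc38a2 is known to be induced by ATF4 when amino acids are scarce and Slc38a4 is found mainly in liver. Slc38a3 and Slc38a5 encode system N carriers, which move glutamine, asparagine and histidine in exchange for protons and can run in both directions, and Slc38a3 is the main glutamine carrier of this kind in hepatocytes. Slc38a7 and Slc38a9 work at the lysosome, where SLC38A7 exports glutamine and SLC38A9 reports arginine to mTORC1. Slc38a6 and Slc38a10 are less well described. On mm10 (GENCODE M21 annotation of GRCm38), Slc38a1 (chr15:96571418-96642913), Slc38a2 (chr15:96687392-96699730) and Slc38a4 (chr15:96994820-97055956) lie next to each other in the same orientation, on the minus strand. Slc38a3 lies at chr9:107650634-107669530 and Slc38a7 at chr8:95835920-95853539, both on the minus strand. Slc38a5 (chrX:8271133-8280179) and Slc38a6 (chr12:73286779-73354049) lie on the plus strand. Slc38a9 (chr13:112660751-112738749, plus strand) and Slc38a10 (chr11:120103960-120151346, minus strand) each share exon bases with a gene on the other strand, 182 with Gm47827 and 367 with Gm11769. Whether the counting used strand is not given in the sources used here, so the counts of these 2 members are uncertain to that extent.

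The family was made up differently in the 2 models. Levels of different genes were compared as CPM per kilobase of exon in RefSeq transcripts. In control MYC-ON livers Slc38a3 was highest, with 129 ± 89.5 CPM per kb (SD, n = 3), followed by Slc38a4 with 75.2 ± 33.3, Slc38a2 with 46.6 ± 4.86 and Slc38a10 with 32.5 ± 0.293. The libraries of Slc38a3 overlapped those of Slc38a4, and those of Slc38a4 overlapped those of Slc38a2, while Slc38a2, Slc38a10, Slc38a7 and Slc38a6 followed each other without overlap. With all exons of GENCODE in place of RefSeq, a length chosen after the data were seen, Slc38a4 came first and Slc38a3 second in these livers. By this length the mean of Slc38a10 (27.3 CPM per kb) also stood above that of Slc38a2 (24.6), and Slc38a5 (1.83) above Slc38a6 (1.47), so the order of these members depends on the length used. In No-Trp livers Slc38a3 reached 720 ± 372 CPM per kb and Slc38a4 346 ± 97.4, again with overlap between them, and both stood above the highest library of Slc38a2, which was 80.0. In HCC53N xenografts Slc38a2 was highest, with 94.7 ± 7.45 CPM per kb in control and 90.5 ± 3.29 in No-Trp mice, and Slc38a10 came next with 31.4 ± 2.33 and 31.4 ± 2.68. Slc38a3 and Slc38a4 in the xenografts lay between 1.00 and 5.04 CPM per kb in all 6 libraries. At the low end, Slc38a9, Slc38a5 and Slc38a1 overlapped in rank order in control livers, and Slc38a3, Slc38a4, Slc38a9 and Slc38a1 did so in the xenografts of both diets, below Slc38a2, Slc38a10, Slc38a7 and Slc38a6, which did not overlap.

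**Figure D1:**
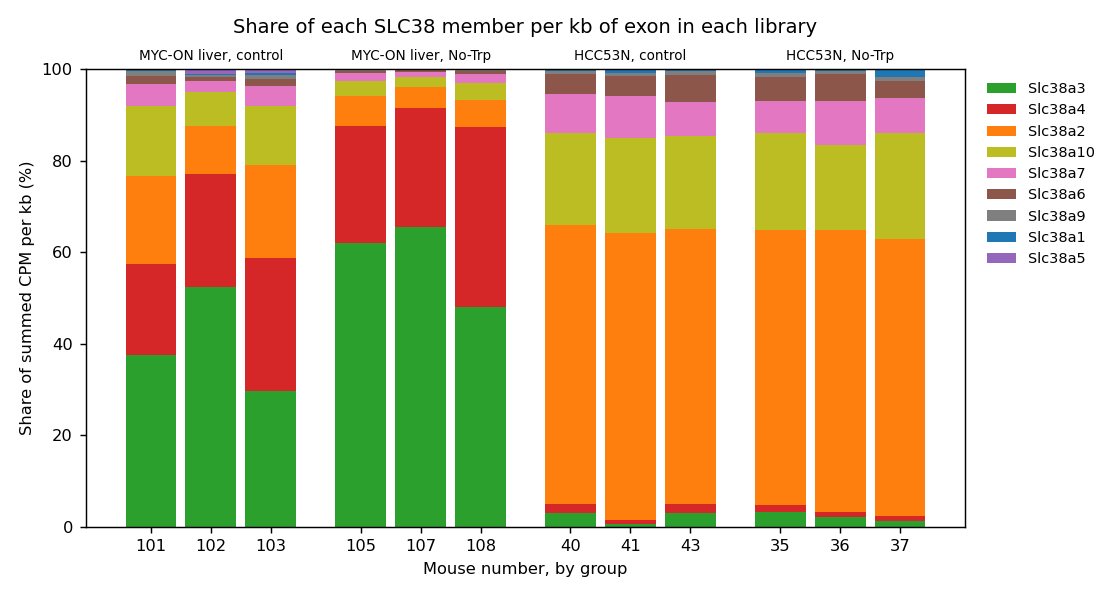
Share of each SLC38 member in the summed CPM per kb of the 9 members (vertical axis, percent), 1 bar per library, with mouse numbers on the horizontal axis grouped by model and diet. Slc38a3 took 29.6% to 52.4% of the sum in control livers and 48.1% to 65.5% in No-Trp livers, and Slc38a2 took 60.0% to 62.8% in all 6 xenografts.

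Stated as shares of the summed CPM per kb of the 9 members, Slc38a3 and Slc38a4 made up 39.8% and 24.6% of the family in control livers (means over 3 libraries) and 58.5% and 30.3% in No-Trp livers. The sum itself was 214.6 to 443.8 CPM per kb in control livers and 848.0 to 1729 in No-Trp livers, without overlap. In the xenografts the sum was 145.8 to 164.0 in control and 143.7 to 152.8 in No-Trp mice, which overlapped.

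In MYC-ON livers, 4 of the 9 members rose on the No-Trp diet and none fell past the test. They were the system N carrier Slc38a3 (5.69-fold), the system A carrier Slc38a4 (4.69-fold), the lysosomal glutamine exporter Slc38a7 (1.73-fold) and Slc38a6 (1.5-fold). A gene passed at an adjusted p of at most 0.05 in edgeR's quasi-likelihood test with Benjamini-Hochberg adjustment over all genes, and 25.3% of the 14122 genes tested in livers did so, 13.3% upward. Only Slc38a3 and Slc38a4 also differed by a fold of 2 or more (a log2 fold change of 1), against 16.5% of genes. The median log2 fold change of the 9 members was 0.49, and that of all genes tested was -0.0031.

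Slc38a3 was measured at 221, 640 and 205 CPM in control livers 101, 102 and 103, and at 1710, 3115 and 1124 CPM in No-Trp livers 105, 107 and 108. The lowest No-Trp library lay above the highest control library, and the controls spanned 3.11-fold, with mouse 102 the highest. The log2 fold change was 2.51 ± 0.59 (SE, adjusted p = 0.028). Slc38a4 was measured at 168, 430 and 290 CPM in control livers 101, 102 and 103 and at 1007, 1768 and 1312 CPM in No-Trp livers 105, 107 and 108. These groups did not overlap either, mouse 102 was again the highest control and mouse 107 the highest No-Trp liver. The log2 fold change of Slc38a4 was 2.23 ± 0.40 (SE, adjusted p = 0.020).

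The smaller rises came with less spread. Slc38a7 was measured at 34.8, 36.8 and 35.6 CPM in the control livers and at 58.6, 68.1 and 55.6 CPM in the No-Trp livers, with a log2 fold change of 0.79 ± 0.15 (SE, adjusted p = 0.020). Slc38a6 was measured at 11.3, 11.7 and 11.4 CPM in the control livers and at 16.6, 17.0 and 17.1 CPM in the No-Trp livers, with a log2 fold change of 0.58 ± 0.18 (SE, adjusted p = 0.049). In both genes the highest and lowest library of a group differed by at most 1.22-fold and the groups did not overlap. Slc38a6 was at the edge of the threshold: it missed it without any filter on low counts (adjusted p = 0.083), in a fit over all 12 libraries (0.059) and whenever 1 liver was left out (0.094 to 0.15). Scaled by library totals without TMM factors, where the median of all genes lay at -0.30 on the log2 scale, Slc38a7 was at 0.48 (adjusted p = 0.10) and Slc38a6 at 0.29 (0.42), and neither passed.

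The number of members passing depended on single livers. Without control liver 101 or without control liver 103 none of the members passed, without No-Trp liver 105 only Slc38a4 did, and without No-Trp liver 107 only Slc38a4 and Slc38a7. The log2 fold changes themselves ranged from 2.01 to 3.22 for Slc38a3 and from 1.95 to 2.58 for Slc38a4 when 1 liver was left out, both highest without control liver 102, where Slc38a3 was 9.34-fold higher, with adjusted p of 0.0062 to 0.10 and 0.0062 to 0.088. Over all genes the same step took the number passing from 3570 to 8 without liver 103, to 299 without liver 101 and to 370 without liver 105. Within the libraries without a resubmission mark (2 per diet), the log2 ratio of mean CPM was 2.51 for Slc38a3, 1.95 for Slc38a4, 0.81 for Slc38a7 and 0.54 for Slc38a6. Between the marked livers (1 per diet), it was 2.34, 2.97, 0.68 and 0.60 in the same order.

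The other 5 members did not pass in livers. Slc38a5, the second system N carrier and a gene also expressed in red cell precursors, had 11, 140 and 97 reads in control livers 101, 102 and 103 and 0, 7 and 5 reads in No-Trp livers 105, 107 and 108. Every control library lay above every No-Trp library, but controls 101 and 102 differed 14.9-fold, and the log2 fold change was -3.90 ± 1.18 (SE, adjusted p = 0.051). It passed in a fit over all 12 libraries (adjusted p = 0.024), with library totals (0.045) and in DESeq2 (0.0015). It missed the threshold in the other 9 of 12 alternatives that tested it. With 1 liver left out the edgeR adjusted p was 0.055 to 0.12, and without control liver 103 Slc38a5 had too few reads to be tested. The log2 ratio of its mean CPM was -4.78 in livers without a resubmission mark (2 per diet) and -0.46 between the marked livers (1 per diet). Slc38a2 was measured at 193, 221 and 238 CPM in control livers and at 304, 373 and 226 CPM in No-Trp livers. No-Trp liver 108 fell among the controls, and the log2 fold change was 0.49 ± 0.22 (SE, adjusted p = 0.14). Slc38a1 was measured at 4.27, 8.67 and 9.41 CPM in control livers and at 6.22, 3.68 and 5.16 CPM in No-Trp livers, with a log2 fold change of -0.55 ± 0.37 (SE, adjusted p = 0.30). The arginine sensor Slc38a9 stayed within 20.7 to 22.8 CPM in all 6 livers and Slc38a10 within 172 to 208 CPM. Their log2 fold changes, 0.03 with a 95% interval of -0.34 to 0.40 and 0.11 with -0.24 to 0.46, turned negative with library totals, and that of Slc38a9 also without control liver 102 or No-Trp liver 108. Counted by range alone, 4 members lay wholly above and 1 wholly below the controls, 5 of 9, where 48.7% of all genes tested had groups that did not overlap.

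**Figure D2:**
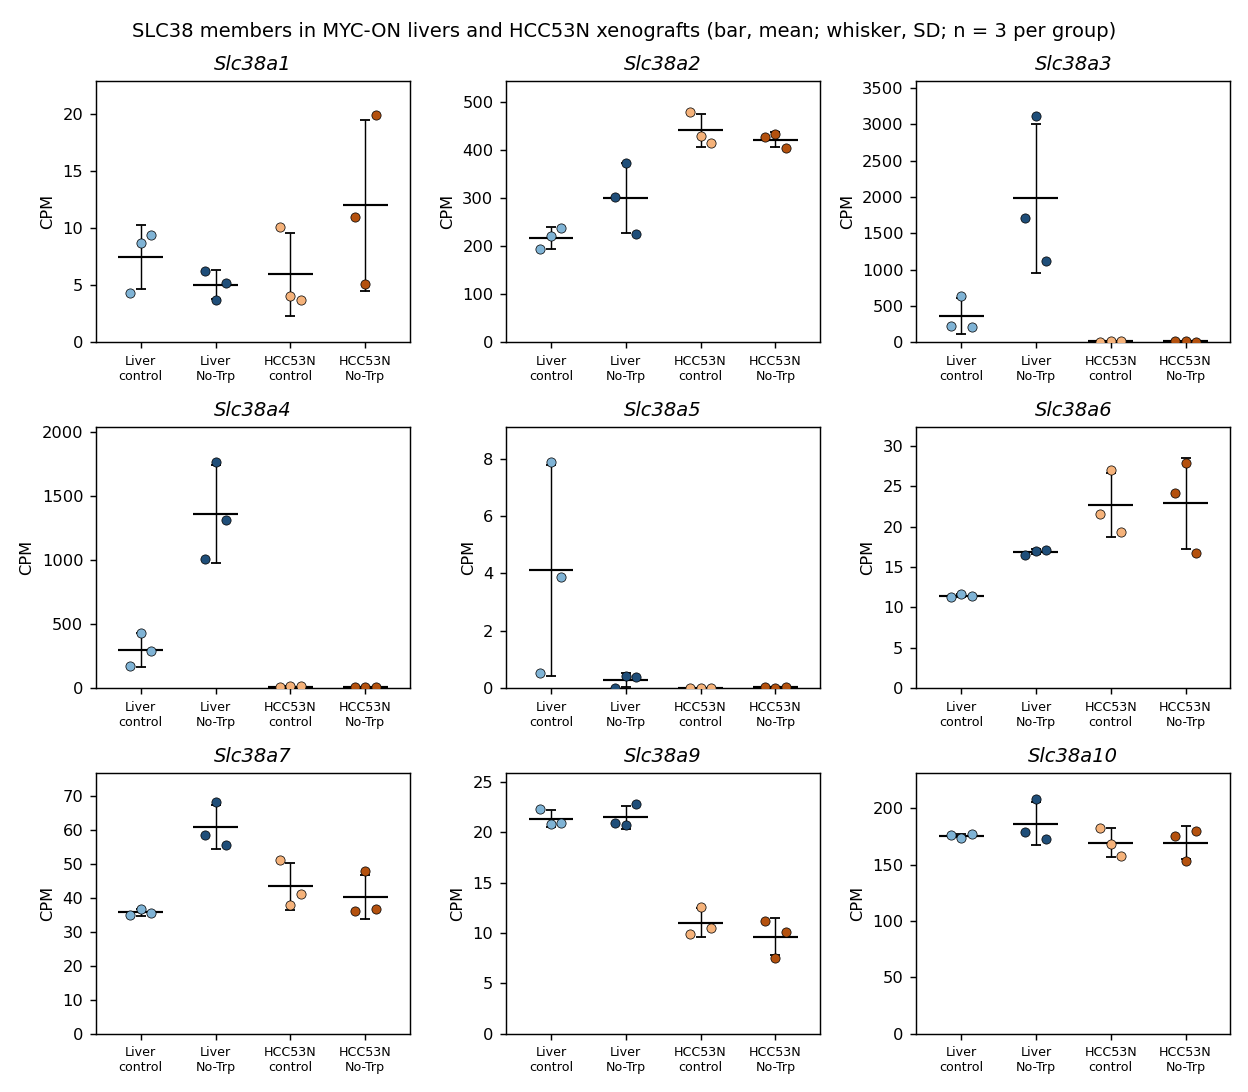
CPM of each of the 9 members (vertical axes, linear from 0) in the 12 libraries by model and diet, with the mean as a bar and the SD as a whisker (n = 3 per group). Slc38a3, Slc38a4, Slc38a6 and Slc38a7 lie higher in all 3 No-Trp livers than in all 3 control livers, and in the xenografts the diets overlap for every member.

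Markers of cell types moved with the diet in the same livers. Summed hepatocyte markers were 3.52-fold higher in No-Trp than in control livers (ranges of 12318 to 42362 and 51656 to 128790 CPM). Of the 9 found, 4 passed upward, among them Apob and Ttr, where 13.3% of all genes tested did. The other 5 did not pass. Among them were Alb (edgeR adjusted p = 0.094), Fgb (0.074), Cyp2e1 (0.20) and Apoa1 (0.29), and Serpina1a had medians of 162 and 163 CPM in control and No-Trp livers. Mouse 102 was the highest control for these markers and mouse 107 the highest No-Trp liver, as for Slc38a3. For each 1000 CPM of hepatocyte markers, Slc38a3 stood at 15.1 to 16.7 CPM in control livers and 21.8 to 27.7 CPM in No-Trp livers, without overlap. On the same scale Slc38a4 stood at 10.1 to 23.5 and 13.7 to 25.4 CPM, with overlap. Slc38a7 (0.868 to 2.89 and 0.529 to 1.08 CPM) and Slc38a6 (0.275 to 0.926 and 0.132 to 0.331 CPM) lay lower in No-Trp than in control livers on this scale, with overlap. The marker sum leans on Alb, which had the largest median of these markers in both diets. Alb was at 4534 to 25575 CPM in control and 29958 to 87845 CPM in No-Trp livers. Ratios to single markers or to another set of markers were not made. These ratios were chosen after the data were seen and were not tested. Whether Slc38a3 rose beyond the hepatocyte share of the RNA was likewise not tested. Summed proliferation markers (5 of 5 found) were 1039 to 1169 CPM in control and 77.3 to 321 CPM in No-Trp livers, and their part in the rise of any member was not tested. In tissue RNA, fewer cells of a type and less RNA per cell cannot be told apart.

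Erythroid markers went along with Slc38a5. Of 8 listed and found, the globin genes Hba-a1, Hbb-bs and Hbb-bt are listed at 0 in every library. The other 5 were tested in livers, where 4 fell, beside 25.3% of all genes that passed in either direction. The sum was 56.1, 565 and 374 CPM in control livers 101, 102 and 103 and 15.6 to 24.1 CPM in No-Trp livers, so among controls it was lowest in mouse 101, which also had the fewest Slc38a5 reads. Per 1000 CPM of these markers, Slc38a5 stood at 9.41 to 13.9 CPM in the control livers and at 0, 21.2 and 16.0 CPM in No-Trp livers 105, 107 and 108, which overlapped. In the xenografts the sum was 2.83 to 5.42 CPM.

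**Figure D3:**
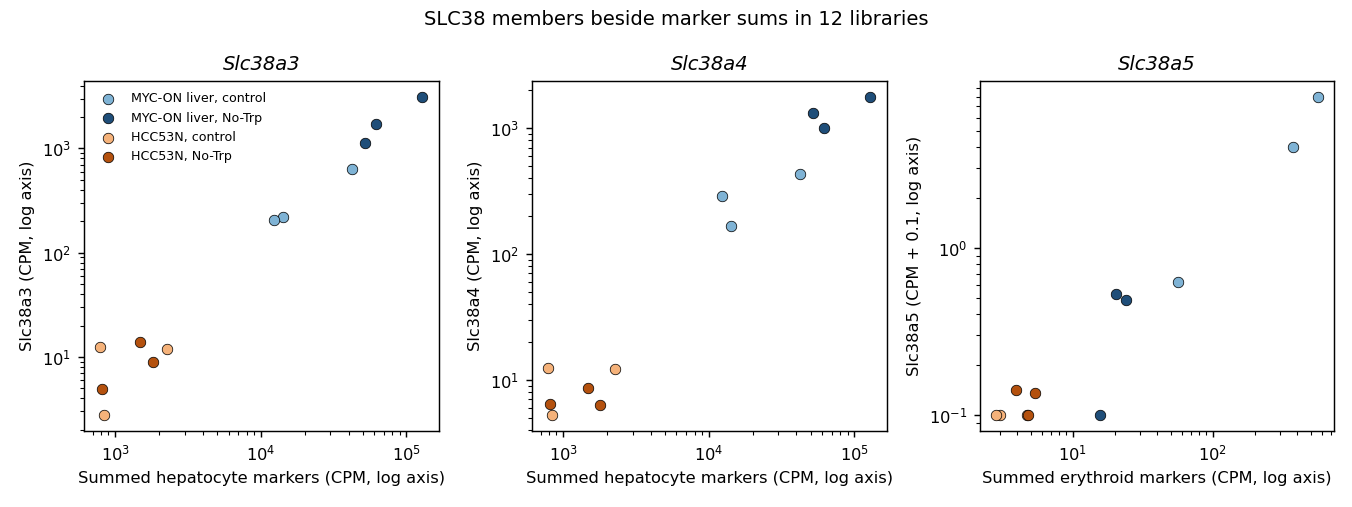
Level of Slc38a3, Slc38a4 and Slc38a5 (vertical axes, CPM on a log scale, with 0.1 added for Slc38a5) against the summed CPM of hepatocyte or erythroid markers (horizontal axes, log scale) in the 12 libraries, colored by model and diet. The No-Trp livers lie at the upper right for Slc38a3 and Slc38a4, and the control livers lie at the upper right for Slc38a5.

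Promoter sequence was available from RefSeq (GRCm38.p6, the build of the counts) for 7 members, with 9 start sites. Slc38a4, which rose on the No-Trp diet and lies far above its xenograft level in livers, is shown beside its neighbor Slc38a2, the highest member of the xenografts, because their upstream bases differ in composition. Each run lies directly upstream of the outermost annotated start, minus strand, read 5′ to 3′ toward the gene, Slc38a4 at chr15:97055957-97056206 and Slc38a2 at chr15:96699731-96699978.
Slc38a4: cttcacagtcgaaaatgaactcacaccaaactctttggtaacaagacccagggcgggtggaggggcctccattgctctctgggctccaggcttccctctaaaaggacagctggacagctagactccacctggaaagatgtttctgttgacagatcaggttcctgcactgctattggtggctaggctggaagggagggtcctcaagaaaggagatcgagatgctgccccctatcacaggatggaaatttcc
Slc38a2: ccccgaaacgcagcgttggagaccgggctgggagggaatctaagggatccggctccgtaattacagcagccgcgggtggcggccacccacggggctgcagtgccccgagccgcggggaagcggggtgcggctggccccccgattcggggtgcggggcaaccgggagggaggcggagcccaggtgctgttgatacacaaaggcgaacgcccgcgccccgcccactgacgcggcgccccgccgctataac
Over the 250 bases upstream of each RefSeq start, G and C made up 72.0% for Slc38a2, with 30 CpG pairs, and 46.0% to 52.8% for the 3 starts of Slc38a4, with 3 to 5 CpG pairs. The median over 32851 promoters was 52.4%. The E-box CACGTG, the letters that MYC and the lysosomal regulator TFEB are known to bind, reads the same on both strands and was searched in the 300 bases from 250 before to 50 after each start. It was present for Slc38a7 and Slc38a5, 2 of the 9 starts, and in 7.15% of all promoters. The 30 bases around it, chr8:95853508-95853537 on the minus strand and chrX:8271339-8271368 on the plus strand, are shown with the E-box in capitals because Slc38a7 rose in livers while Slc38a5 was lower in every No-Trp liver.
Slc38a7: gtgattcaggctCACGTGttacttgagtcg
Slc38a5: gcagacaggtgaCACGTGtccctgttaaga
The E-box begins 34 bases before the RefSeq start of Slc38a7 and 30 bases before that of Slc38a5, both within the outer bounds of the genes in GENCODE. Bases just after the RefSeq start were looked for in GENCODE transcripts of the same gene. They were not found unbroken for Slc38a7 or for the Slc38a4 start with 47.2% G and C, so these starts are less certain. They were found for the other starts. The letters TGATGNAAN, a form of the ATF4 response element, were found in the same 300 bases at none of the 9 starts and in 3.95% of all promoters. Bases outside this window, introns among them, were not searched, so the search cannot say whether a member, Slc38a2 included, holds the element elsewhere. A match is a description of these letters and does not show binding.

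In HCC53N xenografts, no member passed the test between the diets. Here 8 of the 9 members had enough reads to be tested, and 0.374% of the 14704 genes tested passed, 0.360% with a fold of 2 or more as well. No member had an unadjusted p under 0.05 in edgeR, and DESeq2 also called none. All 9 members overlapped between the diets, whereas 22.4% of genes tested did not. The median log2 fold change of the 8 members was -0.055, beside -0.0045 for all genes. The largest difference in size was that of the system A carrier Slc38a1, measured at 3.67, 10.1 and 4.0 CPM in control xenografts 40, 41 and 43 and at 10.9, 5.10 and 19.9 CPM in No-Trp xenografts 35, 36 and 37. Its log2 fold change was 1.00 ± 0.58 (SE, adjusted p = 0.43), with a 95% interval of -0.36 to 2.35. Summed adipocyte markers (5 of 5 found) were 11.4 to 67.0 CPM in control and 356 to 737 CPM in No-Trp xenografts, and the part of host tissue in the members' values was not tested.

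The members that rose in livers were low or level in xenografts. Slc38a3 was measured at 11.9, 2.76 and 12.4 CPM in control xenografts 40, 41 and 43 and at 13.9, 8.98 and 4.91 CPM in No-Trp xenografts 35, 36 and 37, with a log2 fold change of 0.01 and a 95% interval of -1.37 to 1.39. Slc38a4 was measured at 12.1, 5.24 and 12.3 CPM in control and at 8.68, 6.32 and 6.47 CPM in No-Trp xenografts, a log2 fold change of -0.49 with an interval of -1.30 to 0.32. For Slc38a7 the interval was -0.53 to 0.27 and for Slc38a6 -0.52 to 0.50, around -0.13 and -0.01. Slc38a2 was measured at 414 to 480 CPM in control and 405 to 434 CPM in No-Trp xenografts, with a log2 fold change of -0.09 and an interval of -0.40 to 0.22. The intervals of Slc38a9 (-0.77 to 0.35) and Slc38a10 (-0.35 to 0.31) also spanned 0. Slc38a5 had no read in the 3 control xenografts and 1, 0 and 1 reads in No-Trp xenografts 35, 36 and 37, which are at or under a floor of 3 reads per library, so no fold is given.

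**Figure D4:**
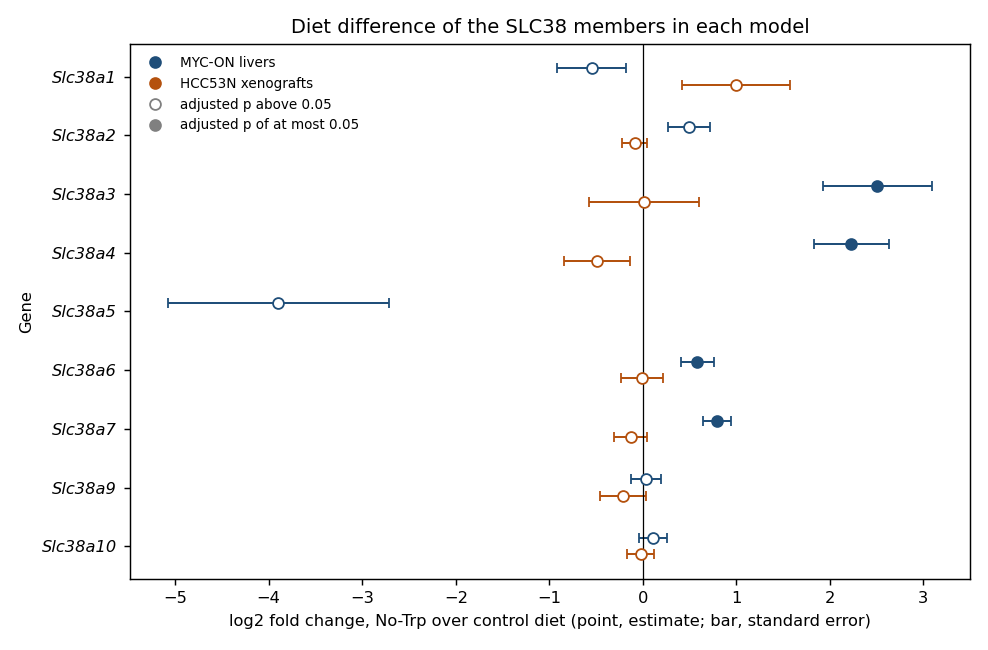
Log2 fold change of each member, No-Trp over control diet (horizontal axis), in MYC-ON livers and in HCC53N xenografts, with the SE as a bar. Filled points passed an adjusted p of 0.05: Slc38a3, Slc38a4, Slc38a6 and Slc38a7 in livers and no member in xenografts, where Slc38a5 was not tested.

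Whether the diet acted differently on a member in the 2 models was tested as the interaction in a fit over all 12 libraries, and 15.6% of the 15472 genes tested passed, 8.25% with a higher and 7.39% with a lower value in xenografts. Of the 9 members 2 did, Slc38a4 and Slc38a7, both with a lower value. Only Slc38a4 also passed a log2 difference of 1 in size, against 12.7% of genes. The diet effect of Slc38a4 in xenografts minus that in livers was -2.68 ± 0.54 on the log2 scale (SE, adjusted p = 0.012), and it passed in all 19 alternatives. That of Slc38a7 was -0.89 ± 0.23 (adjusted p = 0.026). It missed the threshold with library totals, where it was -0.50 (adjusted p = 0.17) and the median of all genes 0.41, and without liver 103, liver 107 or xenograft 35, 37 or 41 (-0.76 to -0.89, adjusted p of 0.054 to 0.064). For Slc38a3 the difference was -2.45 ± 0.89 (adjusted p = 0.082), so a difference between the models in its diet effect was not shown by edgeR. It passed in DESeq2 (-2.59, adjusted p = 0.014), with the resubmission mark as a covariate (-3.0, 0.040) and without control liver 102 (-3.18, 0.023) or control xenograft 41 (-2.89, 0.041). The remaining members had adjusted p of 0.15 to 0.74, and Slc38a2 passed without liver 108 (-0.72, adjusted p = 0.046).

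In CPM, the liver carriers were far lower in the xenografts than in the livers. On the control diet 6 of the 9 members passed, 2 higher and 4 lower in xenografts, where 59.5% of 15472 genes passed, 30.8% higher and 28.7% lower. With a fold of 2 or more as well, 4 members and 43.5% of genes passed. These comparisons use the same libraries as the diet comparisons and come from the fit used for the interaction. Slc38a3 was 39.5-fold lower in xenografts (log2 fold change -5.30 ± 0.74, adjusted p = 8.7e-05; 24.4-fold without control liver 102) and Slc38a4 29.9-fold lower (-4.90 ± 0.44, adjusted p = 1.8e-06). For each 1000 CPM of hepatocyte markers, Slc38a3 stood at 3.27 to 15.8 CPM in control xenografts and 15.1 to 16.7 CPM in control livers. Slc38a4 stood at 5.34 to 15.6 and 10.1 to 23.5 CPM, so both genes overlapped between the models on this scale, which was not tested. Slc38a5 had no read in any control xenograft and a mean of 4.10 CPM in control livers. Against 3 reads per library, that is at least 27.4-fold lower (adjusted p = 0.0011). Without control liver 102 that bound was 14.8-fold, and without control liver 103 Slc38a5 had too few reads to be tested. Slc38a9 was 1.94-fold lower, with 9.87 to 12.6 CPM in xenografts against 20.8 to 22.3 CPM in livers (-0.96 ± 0.20, adjusted p = 0.0013). The ATF4-inducible carrier Slc38a2 was 2.03-fold higher in xenografts (1.02 ± 0.18, adjusted p = 0.00040) and Slc38a6 1.98-fold higher (0.99 ± 0.21, adjusted p = 0.0016). Slc38a7 was measured at 37.7 to 51.2 CPM in xenografts and 34.8 to 36.8 CPM in livers, without overlap, and did not pass (0.28 ± 0.16, adjusted p = 0.16) except with library totals (0.44, adjusted p = 0.048). Slc38a1 and Slc38a10 overlapped between the models, and the members' median was -0.32 beside 0.015 for all genes. By range, 7 of the 9 members did not overlap, and neither did 65.0% of all genes.

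On the No-Trp diet 5 of the 9 members passed, 1 higher and 4 lower in xenografts, where 59.6% of genes passed, 33.2% higher and 26.4% lower. With a fold of 2 or more as well, 3 members and 43.7% of genes passed. Slc38a3 was 216-fold lower (log2 fold change -7.76 ± 0.82, adjusted p = 9.9e-06; 141-fold with library totals) and Slc38a4 192-fold lower (-7.59 ± 0.49, adjusted p = 1.5e-07). For each 1000 CPM of hepatocyte markers, Slc38a3 stood at 4.98 to 9.31 CPM in No-Trp xenografts and 21.8 to 27.7 CPM in No-Trp livers. Slc38a4 stood at 3.50 to 7.99 and 13.7 to 25.4 CPM, and neither gene overlapped between the models on this scale. Slc38a9 was 2.25-fold lower (-1.17 ± 0.20, adjusted p = 0.00031). Slc38a7 was 1.53-fold lower, with 36.2 to 47.8 CPM in xenografts against 55.6 to 68.1 CPM in livers (-0.61 ± 0.16, adjusted p = 0.0063), but with library totals it was at -0.065 (adjusted p = 0.76), where the median of all genes was 0.68. Slc38a2 was 1.39-fold higher (0.47 ± 0.18, adjusted p = 0.037), but did not pass in 11 of 20 alternatives, DESeq2 among them (0.35, adjusted p = 0.15). They include leaving out control liver 102 (adjusted p = 0.059), No-Trp liver 105 (0.080) or 108 (0.14), or No-Trp xenograft 35 (0.077), 36 (0.085) or 37 (0.061). Slc38a1 (1.24 ± 0.53, adjusted p = 0.061), Slc38a6 (0.42 ± 0.21, 0.098) and Slc38a10 (-0.15 ± 0.13, 0.33) did not pass. Slc38a1 passed without xenograft 36 (1.61, adjusted p = 0.018) or 41 (1.24, 0.041) and with library totals (1.75, 0.015), and Slc38a6 without xenograft 37 (0.60, 0.024) and with library totals (0.96, 0.0038). Slc38a5 had at most 7 reads in these 6 libraries and is given by its counts alone. The median of the 9 members was -0.61 beside 0.15 for all genes, and 5 of them did not overlap, against 67.0% of genes.

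Other genes that handle these amino acids are counted beside the shares of all genes that passed, 25.3% in livers and 0.374% in xenografts. Of 21 tested carriers of glutamine, alanine and small neutral amino acids outside the family, 1 rose and 3 fell in No-Trp livers, a smaller share than that of all genes. The rise was that of the lysosomal carrier Slc36a4 (log2 fold change 2.13 ± 0.41), and the largest falls were those of the glutamate carrier Slc1a1 (-5.55 ± 1.17) and the proton-coupled carrier Slc36a2 (-2.78 ± 0.66). Slc1a1 was low, with 3.31 ± 2.90 CPM in control and 0.058 ± 0.057 CPM in No-Trp livers (SD, n = 3). The No-Trp mean lay under the floor of 3 reads per library (0.195 CPM), so the size of its fall is uncertain. In xenografts 1 of 19 tested passed, the glutamine carrier Slc1a5, which rose from 31.2 ± 8.51 to 106 ± 26.4 CPM (SD, n = 3). In livers its mean went the other way, with 101 ± 25.1 CPM on the control and 29.9 ± 19.9 CPM on the No-Trp diet. Of 18 enzymes of glutamine, glutamate and alanine, 6 rose and 4 fell in livers and none passed in xenografts. The alanine transaminase Gpt (2.59 ± 0.39) and the aspartate transaminase Got1 (1.9 ± 0.30) had the largest rises, and Cad, which uses glutamine for pyrimidines (-1.50 ± 0.41), was among those that fell. The median log2 fold changes of the carriers were -0.40 in livers and 0.91 in xenografts, and those of the enzymes 0.08 and 0.33, beside -0.0031 and -0.0045 for all genes. In the interaction, 8 of 22 carriers passed with a higher value in xenografts and none with a lower one, beside 8.25% and 7.39% of all genes.

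Of 25 genes of the ATF4 amino acid response, 6 rose in livers, led by the hormone gene Fgf21 (4.14 ± 0.37) and the lipoprotein receptor Vldlr (3.42 ± 0.36), and the serine pathway gene Shmt2 fell (-0.76 ± 0.21), so that 7 of 25 passed where 25.3% of all genes did. The median of this list was -0.26 in livers and 0.75 in xenografts. In xenografts 1 of 24 tested passed, Cebpb, which fell (-1.25 ± 0.16). Of 31 genes that sense amino acids at the lysosome with SLC38A9, 2 rose in livers, Nprl3 (0.66 ± 0.17) and Mtor (0.62 ± 0.18), 2 fell, the Rag GTPase genes Rragb (-3.14 ± 0.48) and Rragd (-2.39 ± 0.52), and none passed in xenografts. These 4 of 31 are a smaller share than the 25.3% of all genes, and the medians were 0.08 in livers and -0.03 in xenografts. Among genes of liver zones, 8 of 13 periportal genes rose in No-Trp livers, led by Arg1 (2.90 ± 0.39) and Hal (2.68 ± 0.36), while 1 of 13 pericentral genes passed, Oat (0.90 ± 0.18). The list medians were 1.26 and 1.30, so most of the 13 pericentral genes had values above 0, although only 1 passed. No gene of either zone list passed in xenografts, where the medians were 0.15 and 0.30.

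Over the 12 libraries, with the mean of each model subtracted, the genes most like the 4 members with the largest log2 differences in livers were found among 13865 genes by Pearson's r of log2 CPM. Those nearest to Slc38a3 were Ahsg, which encodes a plasma protein made by hepatocytes (r = 0.990), the lipid regulator Ppara (0.989) and the betaine enzyme Bhmt (0.985). Among those nearest to Slc38a4 were the bile transporter Abcb4 (0.975) and the apolipoprotein Apoa4 (0.974). Nearest to Slc38a5 were Pip5k1b (0.946), Fhdc1 (0.937) and the erythroid heme enzyme Alas2 (0.933). Over the 6 livers alone, r with these genes was 0.972, 0.952 and 0.934 in the same order. Over the 6 xenografts it was -0.389, 0.550 and 0.905, but Slc38a5 had at most 1 read in each of those libraries. Nearest to Slc38a7 were Lpp (0.950), the autophagy receptor Sqstm1 (0.947) and Ppm1a (0.940). Among the members, Slc38a3 and Slc38a4 had r = 0.945 over the 6 livers, Slc38a4 and Slc38a7 0.953, and Slc38a6 and Slc38a7 0.975. Over the 6 xenografts the same pairs had r = 0.808, -0.585 and 0.220. The points share the diet and the library they come from, and r is given as a description.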

How the data were processed

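For each mouse the authors deposited a table of raw read counts by gene, made by trimming with Trim Galore, aligning to mm10 with STAR 2.7.2b and counting with HTSeq, per the labels. They were not normalized. The sources used here do not state the strand setting or the rule for overlapping genes. Reads outside genes (24.7% to 39.4% of each library) were left out of library sizes. The smallest value a library allows is 1 read, and since each pair of replicate libraries differed in its counts (chi-square over degrees of freedom of 34.6 to 274), none was treated as 1 library deposited more than once. Whether the mice of a group came from separate litters is not stated.

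Each diet comparison was fitted on the 6 libraries of its model, and the model comparisons and the interaction on all 12, with edgeR 4.0.16 in R 4.3.3 (filterByExpr, TMM, robust glmQLFit, glmQLFTest, two-sided, Benjamini-Hochberg adjustment). A standard error is the log2 fold change divided by the square root of F, and a 95% interval rests on the t quantile of the fit's degrees of freedom. CPM uses TMM factors over all 12 libraries. Alternatives were RLE factors, library totals, DESeq2 1.42.0, 2 other filters, the resubmission mark as a covariate, Rn45s left out, other sets of libraries in the fit, each library left out, and the methods' second threshold. Exon length, marker ratios and within-mark ratios were added after the data were seen. Each fit was also run on simulated counts with planted changes. That checks the code and cannot show how far the calls depend on single libraries. The members and gene lists were chosen with earlier results of these data known. All members are named. Of each list, up to 2 rises and 2 falls with the largest size past the test are named per diet comparison, and the 3 nearest genes for 4 members. Some genes that this rule would name are not reported here.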

Additional observations from a re-analysis of the deposited data

Results flagged for a closer look

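The diet difference of 2 members was not the same in both models by the interaction test. For Slc38a4, the log2 fold change on the No-Trp diet was 2.23 in MYC-ON livers and -0.49 in HCC53N xenografts, and the difference was -2.68 (SE 0.54, edgeR adjusted p = 0.012). Slc38a4 rose in livers and did not pass the test in xenografts, where its mean level was 9.89 CPM on the control diet and 7.15 CPM on the No-Trp diet. For Slc38a7, the log2 fold changes were 0.79 and -0.13, and the difference was -0.89 (SE 0.23, edgeR adjusted p = 0.026). Its difference was -0.50 and did not pass with library totals (adjusted p = 0.17). Summed hepatocyte markers were 12318 to 42362 CPM in control livers, 51656 to 128790 CPM in No-Trp livers and 789 to 2270 CPM in xenografts, and their part in these differences was not tested.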

How the results depend on the processing

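With each library left out, between 0 and 3 members passed in the liver diet comparison in place of 4, 0 in the xenograft diet comparison, 5 to 6 and 4 to 6 between the models on the control and No-Trp diets in place of 6 and 5, and 1 to 3 in the interaction in place of 2. The count was 0 without control liver 101 or 103, 1 without No-Trp liver 105 and 2 without No-Trp liver 107. Adding a log2 fold change of 1 left 2 members in livers, 3 between the models on the No-Trp diet and 1 in the interaction, which was also the count of the interaction with library totals. Other counts of members stayed within 1.5 times the main value. Signs turned with library totals for Slc38a9 (-0.26) and Slc38a10 (-0.20) in livers, Slc38a2 (0.022), Slc38a6 (0.10) and Slc38a10 (0.086) in xenografts, Slc38a10 between the models (0.11 and 0.40 on the control and No-Trp diets, the second past the threshold) and Slc38a9 (0.16) and Slc38a10 (0.29) in the interaction. With the resubmission covariate in xenografts, Slc38a2 was 0.0044, Slc38a3 -0.39, Slc38a6 0.22 and Slc38a10 0.084. Slc38a6 in xenografts was also 0.0010 with RLE factors, 0.0054 without a filter, 0.0050 with at least 10 counts, 0.0019 without Rn45s and 0.0038 in one fit. When each library was left out, Slc38a9 in livers ranged from -0.013 to 0.061, and in xenografts Slc38a3 ranged from -0.43 to 0.32, Slc38a6 from -0.17 to 0.18, Slc38a7 from -0.26 to 0.0029 and Slc38a10 from -0.076 to 0.051. None of these xenograft and left-out values passed. The causes were not tested. Library totals also moved the split of higher and lower calls over all genes, from 1874 and 1696 to 888 and 1983 in livers, from 36 and 19 to 66 and 11 in xenografts (median 0.11), from 4761 and 4441 to 5164 and 3521 (median 0.17) and from 5138 and 4089 to 7502 and 2532 between the models, and from 1276 and 1144 to 2056 and 507 in the interaction.

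Over all genes, the count passing was 3570 in livers and 8 to 1864 without liver 101, 103, 105 or 107. In xenografts it was 55, against 638 with DESeq2, 148 without a filter, 89 with RLE factors, 95 without Rn45s, 23 in one fit, 15 with at least 10 counts, 4 with the resubmission covariate, and 9 to 36 without xenograft 35, 36, 37, 41 or 43. In the interaction it was 2420, against 967 to 1550 without liver 103 or 107 or xenograft 36, 37, 40 or 43. No paired analysis was possible because the groups share no animal numbers. At these depths, Slc38a5 in xenografts is limited by counts of 0 or 1 read.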
